A study of Rattus norvegicus with 42 samples.

Results

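The genes Ager, Pdpn, Hopx, Cav1 and Cav2, named here for alveolar type 1 cells and for caveolae, were followed in rat lung, brain and liver and in known mixtures of the 3 tissues. The probe sets taken were all those whose platform annotation gave 1 of these symbols and no other: 10 of 31042 probe sets that were not controls, for 5 of 14217 genes. Ager, Pdpn and Hopx had 1 probe set each, Cav1 had 3 and Cav2 had 4. The samples were 42 Affymetrix rat arrays in 14 groups of 3 technical replicates, with pure lung, pure brain, pure liver and 11 mixtures of labelled RNA (cRNA). All RNA came from 1 untreated animal of 9 to 12 weeks, whose strain and sex are not given in the sources used here. A mixture is named by its shares of liver, brain and lung, so that the labels give 65/34/1 as 65% liver, 34% brain and 1% lung. The labels state the aim as testing how well, and how sensitively, the make-up of a mixture can be recovered by statistics. Levels are log2 values after RMA, a method that corrects background, equalises the arrays' distributions and sums the probes of a probe set.

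Alveolar type 1 cells are the thin, flat cells that line most of the gas-exchange surface of the lung. Ager encodes RAGE, a receptor for glycated proteins and S100 proteins that sits on the basal membrane of these cells. Pdpn encodes podoplanin (T1-alpha), a mucin-like membrane glycoprotein of their apical surface that lymphatic endothelium and mesothelium also make. Hopx encodes a small homeodomain protein that does not bind DNA itself and acts as a cofactor, first described in the heart. Caveolae are flask-shaped pits of the plasma membrane whose coat is built from caveolin-1 (Cav1) and caveolin-2 (Cav2), helped by cavins and by Ehd2 at the neck. They are abundant in alveolar type 1 cells, endothelium, smooth muscle and fat, so that neither caveolin is a marker of 1 cell type.

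Array medians lay between 5.48 and 5.83, and the median SD between replicate arrays was 0.07 to 0.12 over the groups. The replicates were arrays of the same RNA, and p-values therefore speak only of differences from array to array. Bacterial dap controls, a guide to the array's lower end, read 2.43 to 3.09 in the pure tissues. The 3 tissue labels were checked with marker genes. All 9 measured alveolar type 2 genes were enriched in lung, led by the surfactant protein genes Sftpc (681-fold), Sftpa1 (624-fold) and Sftpb (490-fold), with a summed linear level of 49298 to 50097 in lung, 343 to 345 in brain and 495 to 542 in liver. The neuronal genes Snap25, Gad1 and Nefl were 671-fold, 283-fold and 199.9-fold higher in brain than in lung. Brain arrays went against their label in one respect: the hepatocyte gene Alb (albumin) averaged 5.07 in lung, 12.2 in brain and 14.3 in liver. The hepatocyte genes Alb, Apoh and Tdo2 were 602-fold, 731-fold and 672-fold higher in liver than in lung. In brain, Alb exceeded lung 141-fold, and Apoh and Tdo2 were also more than 2-fold higher in brain than in lung, at 7.82-fold and 2.61-fold. The summed level of these 3 genes was 54.5 to 67.0 in lung, 4836 to 4957 in brain and 36534 to 38721 in liver. Every comparison with brain below rests on those arrays. The comparison of lung with liver does not use them.

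Lung had the highest level of all 5 genes, and 10 of 10 member probe sets were enriched there, that is, above both brain and liver by 2-fold or more at a limma adjusted p under 0.05. Over all probe sets the same call was made for 8.95%. With 1 probe set per gene it was made for 11.5% of all genes, the share to set beside each count of listed genes enriched in lung. Against whichever other tissue was nearer, the representative probe set (the brightest of each gene) was higher in lung by 73.7-fold for Ager, 24.0-fold for Cav1, 23.1-fold for Pdpn, 16.4-fold for Cav2 and 11.3-fold for Hopx. Ranked by this smaller difference among 14217 genes, Ager stood 21st, Cav1 76th, Pdpn 80th, Cav2 115th and Hopx 197th. The median over all probe sets was -0.12 for lung minus liver and 0.03 for lung minus brain. In bulk RNA, fewer cells of a type and less RNA per cell cannot be told apart.

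**Figure D1:**
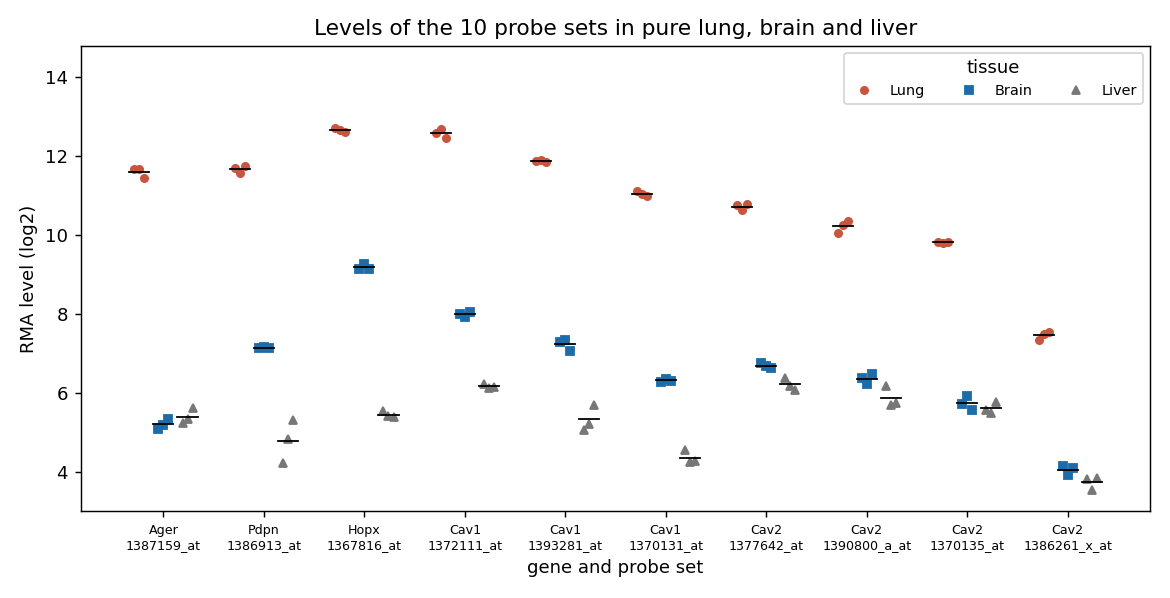
Level (RMA, log2) of each member probe set on every array of pure lung (circles), brain (squares) and liver (triangles), with the mean of 3 arrays as a line. All lung arrays lie above all brain and liver arrays for the 10 probe sets, while brain and liver lie close together for Ager and Cav2 and apart for Pdpn, Hopx and Cav1.

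Ager, the RAGE receptor gene on chr20:4152758-4155956 (GRCr8), read 11.67, 11.67 and 11.45 on the lung arrays, 5.08, 5.19 and 5.35 on the brain arrays and 5.24, 5.33 and 5.61 on the liver arrays. Brain and liver overlapped, and lung stood more than 5 log2 units above both. The log2 difference was 6.20 ± 0.08 (SE) for lung minus liver (limma adjusted p = 2.99e-36) and 6.39 ± 0.08 for lung minus brain (limma adjusted p = 1.69e-36). Brain minus liver was -0.19 ± 0.08 (limma adjusted p = 0.0337), under the 2-fold limit, and its sign turned when each array was shifted along a curve fitted to its hybridisation controls (0.67), called the control curve below.

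Pdpn, the podoplanin gene on chr5:160884995-160919112, read 11.72, 11.59 and 11.75 in lung, 7.13, 7.18 and 7.15 in brain and 4.22, 4.83 and 5.32 in liver. The 3 tissues were fully separate, although the liver arrays of this probe set spread widely (SD 0.55) and brain hardly at all (SD 0.02). Lung minus liver was 6.89 ± 0.12 (limma adjusted p = 1.83e-32), a 119-fold difference, and lung minus brain was 4.53 ± 0.12 (limma adjusted p = 4.48e-27). Brain was 5.14-fold higher than liver (limma adjusted p = 8.90e-19). Markers of other cells that can make podoplanin were measured beside it. Of the lymphatic endothelial list, Ccl21 (5.28-fold) and Lyve1 (2.47-fold), 2 of 4, were enriched in lung. Prox1, the transcription factor of lymphatic identity that hepatocytes also express, was instead 28.2-fold higher in liver and 7.78-fold higher in brain than in lung, and Flt4 read 4.07 in lung, 3.44 in brain and 4.73 in liver. The summed level of the list was 2107 to 2335 in lung, 220 to 251 in brain and 1463 to 1519 in liver. Of the mesothelial genes, Upk1b (15.5-fold) and Msln (4.73-fold), 2 of 3, were enriched in lung, and Wt1 read 4.56 in lung, 3.35 in brain and 4.03 in liver, with summed levels of 411 to 469 in lung, 39.4 to 43.3 in brain and 69.4 to 76.2 in liver. Of 3 choroid plexus genes none was enriched in lung, and Folr1 and Otx2 were 3.02-fold and 9.16-fold higher in brain than in lung. Choroid plexus levels summed to 40.7 to 45.1 in lung, 140 to 151 in brain and 48.6 to 57.2 in liver, with Kl at 3.45 in lung, 3.24 in brain and 3.05 in liver, near the dap controls. The part of these cells in the Pdpn levels was not tested.

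Hopx, on chr14:31410235-31437189, read 12.73, 12.68 and 12.63 in lung, 9.15, 9.27 and 9.13 in brain and 5.53, 5.41 and 5.39 in liver. Each tissue was far from the next, and brain lay nearly midway on the log2 scale. Lung minus liver was 7.23 ± 0.05 (limma adjusted p = 1.31e-44), a 150-fold difference and the largest of lung over liver among the 5 genes. Lung minus brain was 3.49 ± 0.05 (limma adjusted p = 2.65e-35), the smallest of the representative probe sets. Brain exceeded liver 13.4-fold (limma adjusted p = 1.73e-36). Heart muscle genes moved with lung: 5 of 6 measured were enriched there, with summed levels of 1799 to 1837 in lung, 183 to 191 in brain and 152 to 180 in liver, led by Myh6 (39.4-fold), Myl7 (29.9-fold) and Tnni3 (8.52-fold). Of the 5, Myh6 and Tnnt2 were enriched by only 1 of their 2 probe sets. Astrocyte genes moved with brain, with summed levels of 126 to 129 in lung, 13269 to 13932 in brain and 88.2 to 94.9 in liver, and S100b, Aldoc and Gfap were 120-fold, 104-fold and 77.1-fold higher in brain than in lung. The part of either cell type in the Hopx levels was not tested.

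Cav1 and Cav2 lie next to each other on chromosome 4 of GRCr8, Cav2 at chr4:46582681-46590058 and Cav1 at chr4:46606538-46639616, with 16479 bases and 0 annotated genes between them. The representative Cav1 probe set read 12.60, 12.69 and 12.45 in lung, 8.01, 7.93 and 8.05 in brain and 6.23, 6.13 and 6.14 in liver. The representative Cav2 probe set read 10.75, 10.64 and 10.78 in lung, 6.75, 6.69 and 6.62 in brain and 6.37, 6.19 and 6.08 in liver. Arrays of the 3 tissues did not overlap for either of these probe sets, but brain and liver were much nearer to each other for Cav2. In another Cav2 probe set brain (5.56 to 5.93) and liver (5.49 to 5.77) overlapped. For Cav1, lung minus liver was 6.41 ± 0.06 (limma adjusted p = 1.14e-41) and lung minus brain 4.59 ± 0.06 (limma adjusted p = 2.93e-37). For Cav2 these were 4.51 ± 0.09 (limma adjusted p = 1.42e-30) and 4.04 ± 0.09 (limma adjusted p = 3.49e-29). The other Cav1 probe sets gave 6.56 and 6.70 for lung minus liver and 4.66 and 4.74 for lung minus brain. The other 3 Cav2 probe sets gave 3.73 to 4.35 and 3.42 to 4.08. The lowest of these belonged to a probe set marked x_at, a suffix the maker gives to probe sets with probes that may bind other sequences, and its values are uncertain for that reason.

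Brain and liver differed by at least 2-fold for 5 of 10 member probe sets, those of Pdpn, Hopx and Cav1, all higher in brain; over all probe sets 18.9% were called higher in brain and 14.6% lower. Cav1 was 3.55-fold higher in brain than in liver by its representative probe set (limma adjusted p = 1.19e-25), with 1.90 and 1.96 log2 units by the other probe sets. Brain minus liver was 0.47, 0.49, 0.31 and 0.13 for the 4 Cav2 probe sets, of which the last did not pass the test (limma adjusted p = 0.107). After the control curve, which raised the median of all probe sets for brain minus liver to 0.65, against -0.18 as deposited, 8 of 10 passed the 2-fold limit. The same curve put the median of lung minus liver at 0.78, and centring each array on its median put it at -0.37. Under those scalings and 2 others the smaller lung difference of a member stayed between 3.31 and 6.56.

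The difference of Cav1 from Cav2 within an array removes any shift common to that array. It was 1.67 to 2.05 in lung (mean 1.86), 1.24 to 1.43 in brain (mean 1.31) and -0.14 to 0.06 in liver (mean -0.05). These are relative to probe sets of unequal response, so only the change between tissues can be read. The ranges of the 3 tissues did not overlap. Lung exceeded liver by 1.90, brain exceeded liver by 1.35 and lung exceeded brain by 0.55, each with p = 0.1 by a two-sided exact permutation test of 3 against 3 arrays, the smallest this design allows, and 0.1 after adjustment over the 3 comparisons. In all 12 pairings of a Cav1 with a Cav2 probe set the sign was the same, with 1.90 to 2.97 for lung over liver, 1.34 to 1.83 for brain over liver and 0.50 to 1.32 for lung over brain. These differences rest on the pure arrays alone. The liver level implied by the mixtures (below) was 10.8 times the measured one for Cav1 but 1.25 times for Cav2, by the representative probe sets.

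The start regions of both neighbours are shown because the pair differed between tissues while lying side by side, and RefSeq gives Cav1 2 separate starts. Each window holds 300 bases around a RefSeq start on the plus strand of GRCr8, printed 5′ to 3′. Capitals mark matches, on either strand, to 4 motifs. The motif of TEAD factors was searched as the letters GGAATG. That of NKX2-1, a factor of lung epithelium, was searched as the letters CAAGTG. A GC box was searched as the letters GGGCGG, and a TATA box as the letters TATAAA.
Cav2, chr4:46582431-46582730: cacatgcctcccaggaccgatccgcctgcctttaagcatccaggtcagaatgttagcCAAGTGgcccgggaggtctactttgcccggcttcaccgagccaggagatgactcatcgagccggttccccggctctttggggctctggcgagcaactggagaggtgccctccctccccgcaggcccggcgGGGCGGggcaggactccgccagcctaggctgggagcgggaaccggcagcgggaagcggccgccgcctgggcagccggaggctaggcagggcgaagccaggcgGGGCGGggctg
Cav1 first start, chr4:46606288-46606587: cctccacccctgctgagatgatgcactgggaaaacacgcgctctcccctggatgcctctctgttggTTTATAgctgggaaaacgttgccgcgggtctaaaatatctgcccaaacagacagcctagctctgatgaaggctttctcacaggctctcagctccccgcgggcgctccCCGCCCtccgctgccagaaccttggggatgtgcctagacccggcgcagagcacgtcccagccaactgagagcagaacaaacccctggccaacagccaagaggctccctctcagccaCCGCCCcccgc
Cav1 second start, chr4:46607722-46608021: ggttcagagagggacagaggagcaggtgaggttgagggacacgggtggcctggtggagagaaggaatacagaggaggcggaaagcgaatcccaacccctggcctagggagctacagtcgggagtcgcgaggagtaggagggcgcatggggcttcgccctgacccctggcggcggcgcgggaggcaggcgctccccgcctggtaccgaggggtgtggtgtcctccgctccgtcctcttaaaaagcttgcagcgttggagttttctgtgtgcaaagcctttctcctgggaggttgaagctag
The Cav2 window held 2 GC boxes and 1 NKX2-1 motif, the first Cav1 window held 2 GC boxes and 1 TATA box in reverse, and the second Cav1 window held none of the 4. Among all 33469 windows of that length, 33.1% held a GC box, 14.2% a TATA box, 14.1% an NKX2-1 motif and 14.2% a TEAD motif. The Cav2 window was 70.3% G and C and the Cav1 windows were 61.7% and 63.0%, against a median of 51.7% over all windows. Of the other members, the Pdpn window held 3 GC boxes. The Ager (chr20:4155636-4155935) and Hopx (chr14:31429163-31429462) windows lay wholly inside the gene spans given above, so the outer ends of these genes fell outside them. Neither window held a match. These are matches of letters only.

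Genes known from the same cells and structures were set beside the members. The lists were chosen with earlier results of these data known, so their counts describe and do not test how general the lung pattern was. Of 14 other alveolar type 1 genes measured, 13 were enriched in lung, with medians of 4.56 for lung minus liver and 3.80 for lung minus brain; over all genes 11.5% were enriched in lung and the medians were -0.03 and 0.09. The tight junction gene Cldn18 exceeded the nearer tissue 102-fold in lung, the receptor gene Gprc5a 92.8-fold and the membrane protein gene Emp2 83.0-fold. Igfbp2, an insulin-like growth factor binding protein, was instead 2.29-fold higher in brain than in lung, as were 15.5% of all genes by 2-fold or more. Of the 13, Vegfa and Scnn1a were enriched by only 1 of their 2 probe sets. The genes Rtkn2 and Spock2 were not analysed here. All 11 measured endothelial genes were enriched in lung too, led by Ramp2 (12.2-fold), Vwf (11.6-fold) and Calcrl (11.5-fold), with summed levels of 17421 to 17645 in lung, 1353 to 1399 in brain and 2235 to 2391 in liver. Among these, Kdr was enriched by only 1 of its 2 probe sets and Flt1 by 2 of 3. All 5 smooth muscle genes were enriched as well, led by Tagln (15.5-fold), Myh11 (11.6-fold) and Cnn1 (8.69-fold), with summed levels of 4170 to 4276 in lung, 312 to 378 in brain and 292 to 320 in liver. The parts of alveolar, endothelial and muscle cells in the caveolin levels were not tested.

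The listed caveola genes other than Cav1 and Cav2 were mixed. Of 11 measured coat and accessory genes 3 were enriched in lung, against 11.5% of all genes. They were the coat protein Cavin2 (18.6-fold) and the membrane-shaping ATPases Ehd2 (15.3-fold) and Ehd4 (14.5-fold). The other 8 were Cavin3, Cav3, Pacsin2, Pacsin3, Ehd1, Dnm2, Flot1 and Flot2. These were enriched in no direction by that rule, and none was 2-fold higher in brain or liver than in lung. Cavin3 read 10.1 in lung, 8.05 in brain and 10.6 in liver, and the muscle caveolin Cav3 read 5.22 in lung, 4.14 in brain and 5.53 in liver. The medians of the 11 were 0.85 for lung minus liver and 1.08 for lung minus brain. Cavin1 and Cavin4 were not analysed here.

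**Figure D2:**
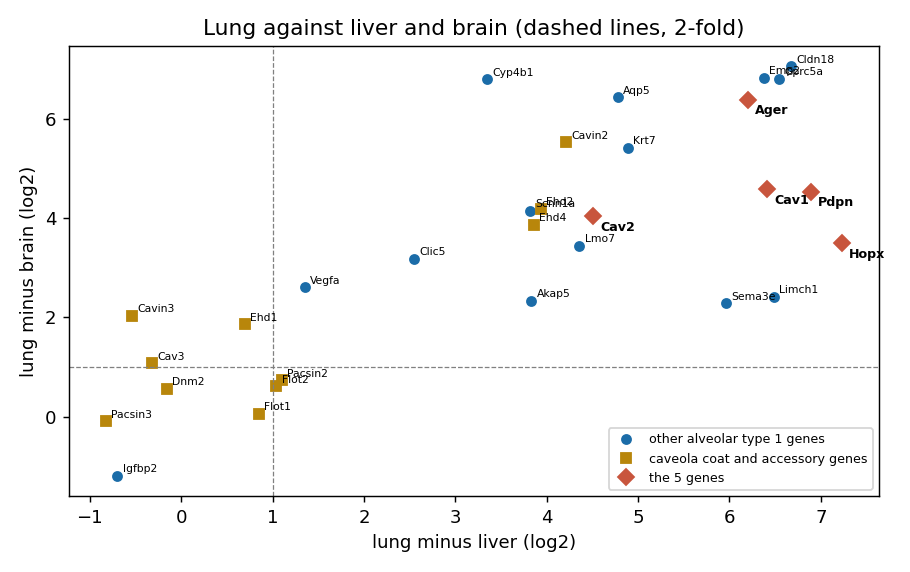
Lung minus liver (x axis, log2) against lung minus brain (y axis, log2) for the 5 genes (diamonds), 14 other alveolar type 1 genes (circles) and 11 caveola genes (squares), 1 probe set per gene; dashed lines mark 2-fold. Of the circles 13 lie beyond both lines, while Cavin2, Ehd2 and Ehd4 are the squares beyond both limits with Cav2 nearby.

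Of 8 measured ligands and effectors of the Ager receptor, 4 were enriched in lung, against 11.5% of all genes. They were the calcium-binding S100a6 (88.7-fold), S100a4 (30.4-fold), S100a9 (15.1-fold) and S100a8. The ligand S100b was 120-fold higher in brain than in lung, where 15.5% of all genes were higher in brain by 2-fold or more. Hmgb1, a nuclear protein that binds the receptor when released, read 10.3 in lung, 9.86 in brain and 9.47 in liver. Of 8 partners of podoplanin, 5 were enriched in lung, against the same 11.5% of all genes. Among them were moesin (Msn, 17.0-fold), Cd44 (13.2-fold) and ezrin (Ezr, 7.91-fold), which link membrane proteins to the cytoskeleton or bind the matrix. Clec1b, the platelet receptor for podoplanin, was 2.28-fold higher in liver than in lung, where 13.8% of all genes were higher in liver by 2-fold or more.

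In the mixtures all 5 genes followed the lung share. The mean level of Ager was 6.11 at 1% lung, 7.60 to 8.14 in the 3 mixtures with 5%, 8.59 and 8.67 at 10%, 9.30 at 15%, 9.69 at 20%, 9.99 and 10.23 at 25% and 11.17 at 70%. Its arrays at each of these shares stood clear of those at every other share. With brain and liver at the bottom and lung at the top, 3 of the 13 neighbours in this order overlapped, namely brain with liver, 60/35/5 with 70/25/5 and 45/45/10 with 50/40/10. Hopx was ordered differently at the low end: the mixture 65/34/1 averaged 8.66, below pure brain at 9.18, and the 3 mixtures with 5% lung averaged 9.67, 9.69 and 9.72. For Cav2, 5 of 13 neighbours overlapped, among them 65/34/1 (6.32) with pure liver (6.21).

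**Figure D3:**
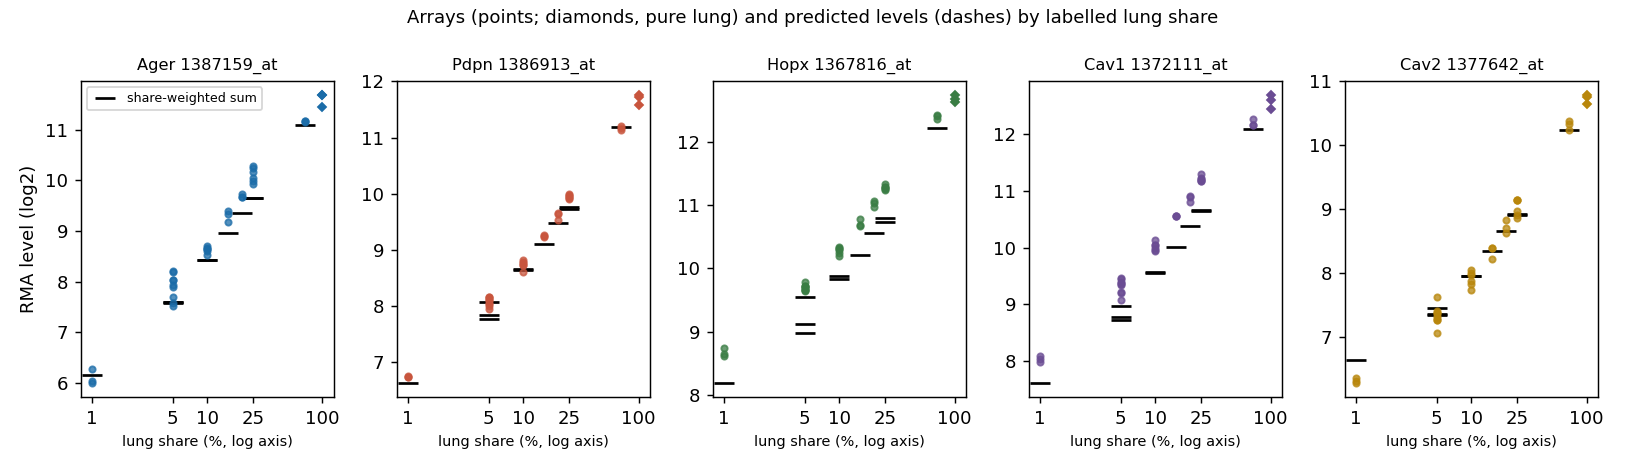
Level (RMA, log2) of the representative probe set of each gene on every mixture array (circles) and pure lung array (diamonds) against the labelled lung share (%, log axis); dashes mark the share-weighted sum of the pure tissue means. Circles of Hopx and Cav1 lie above the dashes in every mixture, while those of this Cav2 probe set lie around them.

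The first test of the mixtures took pairs whose labelled shares differ in a known way, with calls at a limma adjusted p under 0.05 and no fold limit. From 70/25/5, trading liver for lung gave 5/25/70, where 10 of 10 members were higher, by 2.07 (a Cav2 probe set) to 3.03 (Ager) against 30.6% of all probe sets called higher. In 70/5/25, where lung took the place of brain, 10 of 10 were higher than in 70/25/5, by 1.51 to 2.09 (25.4% of all). For smaller steps, 55/20/25 exceeded 55/30/15 for 9 of 10 (10.2% of all), with 0.69 ± 0.08 for Ager (limma adjusted p = 1.32e-07). The mixture 60/35/5 exceeded 65/34/1 for 9 of 10 (2.21% of all), with 1.85 ± 0.08 for Ager (limma adjusted p = 3.29e-18) and 0.92 ± 0.09 for Cav2 (limma adjusted p = 4.20e-09). The pure tissue means, weighted by the labelled shares, give a predicted size for each step, which was not always met. Ager had 3.03 where 3.49 was predicted for 5/25/70, and 1.85 where 1.45 was predicted for 60/35/5. It had 2.09 where 2.06 was predicted for 70/5/25, and 0.69 where 0.69 was predicted for 55/20/25. For 5/25/70 Cav1 had 2.77 (predicted 3.37), Hopx 2.71 (3.23), Pdpn 3.02 (3.41) and Cav2 2.88 (2.90). The probe set not called in either smaller step was the x_at probe set of Cav2 (limma adjusted p = 0.143 and 0.0655). After the control curve limma called 0 of 10 for 55/20/25 and 1 of 10 for 60/35/5, although 9 and 8 had an unadjusted p under 0.05 and all 10 estimates were positive in both pairs. The x_at probe set passed for 60/35/5 without the second 60/35/5 array (limma adjusted p = 0.00571) or the second 65/34/1 array (limma adjusted p = 0.00521), with dim probe sets left out (limma adjusted p = 0.0309) and with a variance trend and robust moderation in limma (limma adjusted p = 0.0354).

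The 5 genes differed in how much of a mixture's predicted signal came from lung. At 1% lung the share-weighted sum of the pure tissue means drew 43.7% of its Ager level from lung, 33.1% for Pdpn, 31.5% for Cav1, 22.5% for Hopx and 16.9% for Cav2. For Hopx 67.8% of that sum came from brain. On the 65/34/1 arrays Ager read 6.28, 5.998 and 6.03, against 5.32 for the sum without lung. Cav1 read 7.99, 8.09 and 8.03 against 7.06, and Hopx 8.64, 8.61 and 8.74 against 7.82. Those arrays were all above the sum without lung. With the labelled 1% lung included, the sum was 6.15 for Ager, 7.61 for Cav1 and 8.19 for Hopx, against observed means of 6.11, 8.04 and 8.66. For Cav1 and Hopx the excess over the sum without lung was thus larger than 1% lung predicts. Cav2 read 6.28, 6.37 and 6.32 on its representative probe set, against 6.38 without lung and 6.65 with it. Its arrays all lay slightly below the sum without lung. In all, 8 of 10 members were above the sum without lung, by 0.31 to 1.04, and all probe sets were called above in 11.4% with a median of -0.18. The differences were 0.79 ± 0.07 for Ager (limma adjusted p = 1.66e-10), 0.97 ± 0.05 for Cav1 (limma adjusted p = 1.51e-16) and -0.06 ± 0.08 for Cav2 (limma adjusted p = 0.547). The weakest call, 0.31 for another Cav2 probe set (limma adjusted p = 0.0216), was lost without the second liver array (limma adjusted p = 0.0662), the third liver array (limma adjusted p = 0.0540) or the first 65/34/1 array (limma adjusted p = 0.0967). It was also lost, leaving 7 of 10, with each array centred on its median (0.17, limma adjusted p = 0.161) or quantile-normalized again (0.17, limma adjusted p = 0.202). Median centring put the representative Cav2 probe set below the sum without lung (-0.19, limma adjusted p = 0.0317). With the control curve 4 of 10 were called, and Pdpn (0.61) and Hopx (0.70) were not.

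The second test compared each mixture with the share-weighted sum of the pure levels over all 11 mixtures. No member (0 of 10) departed by 1.5-fold, against 0.325% of all probe sets above and 4.84% below. Without a fold limit 7 of 10 passed the test, all above the sum, against 10.0% of all probe sets above and 74.3% below. By the representative probe sets, the mean departure was 0.46 ± 0.03 for Cav1 (limma adjusted p = 1.39e-13), 0.45 ± 0.03 for Hopx (limma adjusted p = 8.59e-15) and 0.27 ± 0.05 for Ager (limma adjusted p = 3.42e-05). Pdpn had 0.14 ± 0.07 (limma adjusted p = 0.0877) and Cav2 -0.02 ± 0.05 (limma adjusted p = 0.719). These probe sets were above the sum in 11 of 11 mixtures for Cav1 and Hopx, in 10 for Ager, in 9 for Pdpn and in 5 for Cav2. The probe sets of a caveolin disagreed. The others of Cav1 gave 0.39, above in 11 mixtures, and 0.22, above in 10. The others of Cav2 gave 0.35 for the x_at probe set (limma adjusted p = 7.75e-05, above in 10 mixtures), 0.23 (limma adjusted p = 0.00297, above in 11) and -0.02 (above in 5), so that Cav2 as a gene was not shown to follow the sum. The median over all probe sets was -0.22, so the members lay further above the bulk of the array than above 0. Departure above the sum was not particular to them. Median departures were 0.78 for the hepatocyte, 0.54 for the neuronal, 0.36 for the astrocyte and 0.29 for the alveolar type 2 genes. The ligands and effectors of the Ager receptor had 0.01. Every other list was below 0, among them the other alveolar type 1 genes (-0.03). The lung-enriched probe sets had a median of -0.24. The control curve left Cav1 at 0.37 (limma adjusted p = 0.117), Hopx at 0.33 (limma adjusted p = 0.137) and Ager at 0.15 (limma adjusted p = 0.597), with 0 of 10 members called and 2 at an unadjusted p under 0.05.

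The size of the departure differed between mixtures. The median over the 10 members was 0.51 in 70/5/25 and 0.45 in 70/25/5, the mixtures with the most liver, and 0.07 in 5/25/70 and 0.06 in 25/70/5, those with the least. The median over all probe sets was -0.18 and -0.23 in the liver-rich pair and -0.18 and -0.17 in the liver-poor pair. The order was not that of the liver share throughout: the members' median was 0.40 in 60/35/5 but 0.18 in 65/34/1, against 0.28 and 0.31 in the 2 mixtures with 55% liver. The spiked bioB control read 8.25 and 8.19 in the liver-rich pair and 7.70 and 7.72 in the liver-poor pair, but its highest mixture value was 8.42 in 60/35/5, and 65/34/1 had 8.02. In the pure tissues it read 7.69 in lung, 7.74 in brain and 8.60 in liver. Its part in the departures was not tested. Expressed as an apparent lung share, Ager gave 37.7% ± 1.7 for the labelled 25% of 70/5/25 and 7.85% ± 0.57 for the 5% of 70/25/5, but 5.08% ± 0.38 for the 5% of 25/70/5 and 73.9% ± 0.6 for the 70% of 5/25/70 (SD, n = 3). For the same mixtures Hopx gave 36.2%, 9.91%, 6.53% and 80.0%, so the nearly correct Ager values in the liver-poor pair did not hold for every member. The representative Cav1 probe set gave 38.1%, 9.40%, 6.15% and 75.7%, and Pdpn gave 29.2%, 6.99%, 4.87% and 69.1%. Another Cav1 probe set gave 38.0%, 8.98%, 5.56% and 76.7%. The dimmest Cav1 probe set gave 35.8%, 7.80%, 4.62% and 71.0%, so the representative values in the liver-poor pair do not stand for Cav1. The representative Cav2 probe set gave 28.8% ± 2.2, 5.69% ± 1.23, 4.17% ± 0.47 and 73.7% ± 3.6 for the same mixtures (SD, n = 3). The other 3 Cav2 probe sets gave 33.0%, 35.0% and 41.4% in 70/5/25 and 5.53%, 7.44% and 8.95% in 70/25/5, so the lower values of the representative probe set do not stand for the gene.

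**Figure D4:**
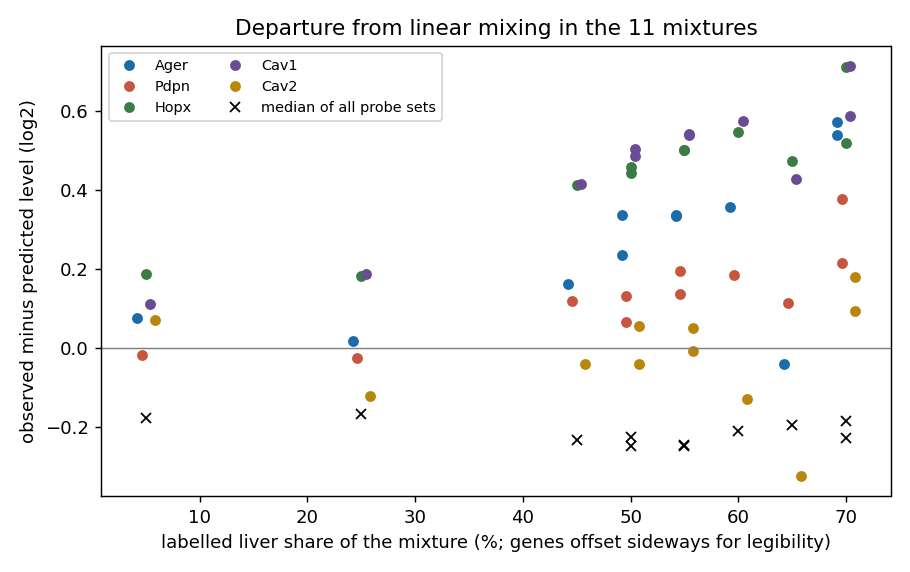
Observed minus predicted level (log2) of the representative probe set of each gene in the 11 mixtures against the labelled liver share (%), with the median of all probe sets as crosses. Cav1 and Hopx are highest at 70% liver, near 0.71 in 70/25/5, and no gene exceeds 0.19 in the mixtures with 5% and 25% liver.

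A pair of mixtures with equal lung share but brain and liver exchanged did not follow the pure tissues. Since Pdpn, Hopx and Cav1 were higher in brain than in liver, the sum predicted them higher in 25/70/5 than in 70/25/5, by 0.30, 0.57 and 0.26. Cav1 instead read 9.07, 9.20 and 9.21 in 25/70/5, against 9.46, 9.39 and 9.45 in 70/25/5. The arrays did not overlap, and the difference was -0.27 ± 0.06 (limma adjusted p = 9.33e-05). Ager read 7.53, 7.57 and 7.69 in 25/70/5, against 8.03, 8.20 and 8.18 in 70/25/5, a difference of -0.54 ± 0.08 (limma adjusted p = 7.98e-07) where -0.02 was predicted. Hopx read 9.68, 9.72 and 9.78 in 25/70/5 and 9.70, 9.66 and 9.71 in 70/25/5, so its arrays overlapped (0.04 ± 0.05, limma adjusted p = 0.578). In all, 5 of 10 members were lower in 25/70/5, those of Ager, all 3 of Cav1 and 1 of Cav2, and 0 were higher, while 22.1% of all probe sets were lower and 30.9% higher. With the control curve limma called 0 of 10, and 0 had an unadjusted p under 0.05. Of the 10 estimates 9 were then positive, with Cav1 at 0.12 and Ager the exception at -0.07.

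**Figure D5:**
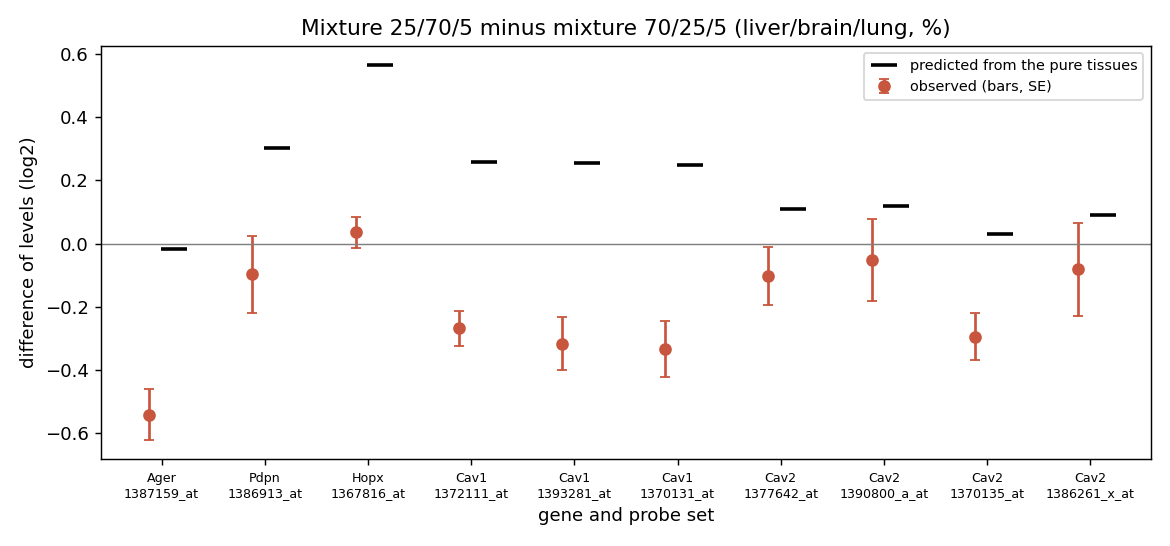
Difference in level (log2) of mixture 25/70/5 minus mixture 70/25/5 for each member probe set, observed (circles with SE bars) and predicted from the pure tissues (dashes). All 10 circles lie below their dashes.

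The third test used no pure array. A regression of the 11 mixture means on the labelled shares, on the linear scale, gave an implied level in each tissue. For 10 of 10 members implied lung exceeded implied liver and brain at a limma adjusted p under 0.05, against 20.6% of all probe sets. The members were chosen with earlier results of these data known, and the mixtures held RNA of the same tissues and animal. This count, like those of the mixture pairs, therefore describes the members and is no independent test of their lung pattern. The implied lung level over the measured one was 1.17 for Hopx, 1.13 for Cav1, 1.11 for Ager, 1.07 for Cav2 and 1.01 for Pdpn, against a median of 0.900 over the 2777 lung-enriched probe sets. These ratios leaned on the single mixture with 70% lung: without 5/25/70 they were 1.36, 1.42, 1.31, 1.09 and 1.11, and the median was 1.01. The other tissues were recovered poorly. Implied liver was 14.7 times the measured level for Hopx, 10.8 times for Cav1, 7.67 times for Ager and 6.56 times for Pdpn, against 1.25 times for the representative Cav2 probe set and 2.27, 2.53 and 2.95 times for the other 3. The implied brain level was -213 ± 85.3 (SE) for Ager, a value below 0 that no level can take, where 36.9 was measured. It was also below 0 for all Cav1 probe sets (-121 ± 197, -124 ± 98.0 and -90.7 ± 50.6). The same held for a Cav2 probe set other than the representative (-33.4 ± 29.0). For these members the call of implied lung over implied brain was made against such a value.

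Among the 5 genes, Pdpn and Cav1 had the most similar profiles over the 14 groups, with a root mean square difference of 0.16 log2 units between their centred group means and a Pearson r of 0.996. Ager and Hopx were the least similar (0.85, r of 0.895). The groups share RNA and most of the variation is the lung share itself, so these values only describe. Over all genes, the nearest to Ager were Emp2 (0.10), Gprc5a (0.11) and the monooxygenase gene Fmo2 (0.13), and the nearest to Hopx were Tmem100 (0.10), Sema3g (0.16) and Cldn5 (0.32). Pdpn and Cav1 each had the other, Wif1 and Tspan8 as their 3 nearest, at 0.16 to 0.23. Cav2 was nearest to the annexin gene Anxa2 (0.07), the collagen gene Col5a2 (0.08) and the smooth muscle gene Tagln (0.09).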

How the data were processed

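The authors normalized all arrays with RMA, per the submitters' processing notes, and deposited log2 levels per probe set. No version of RMA is given in the sources used here. Per the labels' protocols, RNA was extracted with Trizol, cleaned with RNeasy columns and labelled from 1 μg. After leaving out 57 controls, 31042 probe sets entered 1 limma fit (limma 3.58.1, R 4.3.3) of all 42 arrays with a mean per group, with Benjamini-Hochberg adjustment across all of them. Departures from share-weighted sums used the delta method. For gene-level statements the brightest probe set of a gene stood for it. Named were every member, the 3 genes of each list with the largest smaller lung difference, list genes at least 2-fold higher in brain or liver than in lung, and the 3 genes most like each member. Further genes, such as Hmgb1, S100a8, Kl, Vegfa, Scnn1a and the caveola genes not enriched in lung, were chosen after their values were seen. The members and lists were chosen with earlier results of these data known. At most 28 values were equal in a replicate pair, so each array counted as 1 sample. The steps were tested on simulated data. Alternatives covered scaling, filters, the variance model and left-out arrays; the control curve assumes equal spikes on every array, which was not tested. Sequences and coordinates are from RefSeq (GRCr8). Figures used matplotlib 3.10.9 under Python 3.11.15.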

Additional observations from a re-analysis of the deposited data

How the results depend on the processing

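The number of arrays and the signal over background limit precision, and nothing here measures variation between animals. No paired analysis was possible because the labels give no replicate numbers. The curve through the hybridisation controls changed most: 8 members differed between brain and liver, 0 were called for 55/20/25 minus 55/30/15, 1 for 60/35/5 minus 65/34/1, 0 for 25/70/5 minus 70/25/5, and 4 were above the sum without lung at 1% lung; the cause was not tested. It also turned the sign of brain minus liver for Ager (0.67), of the Pdpn departure (-0.014), of the representative Cav2 probe set at 1% lung (0.10), and of 25/70/5 minus 70/25/5 for Pdpn (0.35), Cav1 (0.12, 0.12, 0.13) and Cav2 (0.36, 0.42, 0.17, 0.39). The second dimmest Cav2 probe set turned with median centring for brain minus liver (-0.12) and at 1% lung (-0.14), and so did Hopx for 25/70/5 minus 70/25/5 (-0.0015). A repeated quantile normalization turned the second dimmest Cav2 probe set likewise (-0.13 and -0.16). With 1 probe set per gene, only 5 members are tested: 5 were enriched in lung, 3 differed between brain and liver, 5 were called from mixtures alone and in 4 of the pairs, 2 in 25/70/5 minus 70/25/5, and 4 at 1% lung. Departures were called for 10 members against a share-weighted mean of log2 levels, as that arithmetic lowers the prediction, with 0.99 and 0.91 for the representative and the second dimmest Cav2 probe set, and for 3 after subtracting the median of all probe sets, with 0.20 for each. Leaving out an array gave 9 to 10 members for 60/35/5 minus 65/34/1, 7 to 8 at 1% lung, and -0.034 to 0.056 for the second dimmest Cav2 probe set at 1% lung. Leaving out an array or a mixture gave departures of -0.048 to 0.011 for the representative and -0.054 to 0.0062 for the second dimmest Cav2 probe set. Members above the sum at 1% lung numbered 7 with median centring and with repeated quantile normalization, and 10 members passed for 60/35/5 minus 65/34/1 with dim probe sets left out and with a variance trend and robust moderation. The other counts of members did not move when an array was left out. The Cav1 minus Cav2 differences then ranged from 0.45 to 0.64 for lung over brain, 1.81 to 1.99 for lung over liver and 1.29 to 1.41 for brain over liver.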
